A study of Mus musculus with 7 samples.

Results

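Chromatin accessibility was examined at 6 genes that encode receptor chains for interferon and interleukin 10 (IL-10): Ifnar1 and Ifnar2 for type I interferon, Ifngr1 and Ifngr2 for interferon gamma, and Il10ra and Il10rb for IL-10. They are 6 of 21900 protein-coding genes annotated by RefSeq. Listed peaks were taken where the peak list named a member, or where a peak lay within 50 kb of the cluster on chromosome 16 that holds Ifnar2, Il10rb, Ifnar1 and Ifngr2. This gave 2 of the 6395 listed peaks, 1 at Il10rb and 1 at Il10ra.

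T follicular helper (Tfh) cells, which drive B cell selection in germinal centres, were sorted from spleen as CD4+ CD44+ cells that lacked GITR and were low for PSGL-1 but high for PD-1 and CXCR5. ATAC-seq, which reads out open chromatin from where a transposase inserts adapters, was run on 4 samples from mice given an antibody against IFNAR1 and on 3 samples from mice given anti-rat IgG. All mice were of the strain B6/Sle1.Yaa, which carries the Sle1 lupus susceptibility interval and the Yaa translocation in both groups, were 5 months old and received their antibody 2 times a week for 4 weeks. The antibody's target is spelled IFNA1 in the sample labels but IFNAR1 in the title, which is followed here. The labels do not tell whether a sample was 1 mouse or a pool.

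The deposited values form 1 list of sites where coverage on the anti-IFNAR1 side exceeded the control IgG background at a q of 0.05. The list carries no value for single samples, so nothing below has a spread between mice. A gene without a listed peak may be closed, equally open on both sides, or more open in control IgG mice. It may also be more open on the anti-IFNAR1 side but short of the threshold. These cases cannot be told apart here. Sequencing depth was 3.54 times higher for anti-IFNAR1 than for control IgG, although the sample numbers stand at 1.33 to 1. By the gene name the file assigns, 21.1% of all protein-coding genes had a listed peak. Of 11 T and Tfh cell markers, 8 had one assigned, Cd4, Cd3e, Bcl6 and Pdcd1 among them, and Cxcr5, Icos and Il21 had none assigned, although listed peaks under other names overlap the Icos and Il21 genes. Markers of other cells had none assigned in 4 of 4 B cell, 4 of 4 CD8 T and NK cell and 2 of 2 regulatory T cell genes, and 1 of 5 myeloid markers, Cd14, had one. Lists this short say little at a background of 21.1%.

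These receptors belong to the class II cytokine receptor family, whose members work in pairs: a chain that binds the ligand with high affinity and a partner chain that completes the signalling complex. IFNAR1 and IFNAR2 use the kinases TYK2 and JAK1, and STAT2 and IRF9 are among the factors that carry their signal. IFNGR1 and IFNGR2 use JAK1 and JAK2, and the IL-10 receptor uses JAK1 and TYK2 and acts mainly through STAT3. The chain encoded by Il10rb is shared with the receptors for IL-22 and type III interferon.

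Both chains of the IL-10 receptor had a listed peak, and none of the 4 interferon receptor genes had one assigned. The share was therefore 2 of 6 members (33.3%), against 21.1% of all protein-coding genes. With 6 genes this is a count beside a background and not a difference that was tested. By receptor, the count was 0 of 2 for type I interferon, 0 of 2 for interferon gamma and 2 of 2 for IL-10.

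Il10rb, which encodes the shared signal-completing chain, had the stronger of the peaks. Its peak spanned chromosome 16 from 91406238 to 91406828 (mm10), 590 bp, with its summit at 91406321. The authors' deposited table placed it at the TSS of transcript Il10rb-004, which starts at 91406444 on the plus strand. The summit lay 123 bp upstream of that start and 164 bp downstream of the RefSeq start of Il10rb at 91406157. The peak therefore sat at the very 5′ end of the gene, just past the end of Ifnar2, which lies 649 bp before the edge of the peak.

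At the Il10rb summit there were 50 anti-IFNAR1 fragments, which the caller scaled to a pileup of 14.13, against a control IgG background of 0.708. That background came from 3 control fragments in the 1 kb around the site, and the control side had 0 fragments at the summit itself. A control count of 0 at the summit was recovered for 2021 of the 6395 listed peaks (31.6%). The fold over background in the authors' deposited table was 8.86, with a pseudocount of 1 on both sides, and the q was 6.04e-11. This put the peak at rank 324 of 6395 by q and 13 of 213 on chromosome 16.

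Against the control fragments in the 1 kb window and without a pseudocount, the depth-scaled ratio at Il10rb was 20.0 (exact 95% interval 6.45 to 100.1). Against a limit of 3 control fragments at the site, coverage was 4.71-fold higher on the anti-IFNAR1 side, whose 50 fragments were taken as exact. Among the 102 listed peaks that also held 50 anti-IFNAR1 fragments, folds ran from 2.88 to 10.3 with a median of 4.50. Of these, 1 had a fold above that of Il10rb. At equal fragments the fold depends only on the recovered control background. Intervals cover counting error only, since copies made by PCR are not independent molecules. The limit at the site covers counting error of the control side alone. The summit is by construction the highest point of the peak on the anti-IFNAR1 side.

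Il10ra encodes the ligand-binding chain of the same receptor, on chromosome 9. Its peak spanned 45268906 to 45269204, 298 bp, on a gene that runs on the minus strand from a start at 45269149. The summit at 45268933 lay 216 bp inside the gene, and the authors' deposited table placed the peak at the TSS. There were 19 anti-IFNAR1 fragments, a pileup of 5.37, against a control IgG background of 0.236. That background was 1 control fragment in the surrounding 1 kb, with 0 at the summit, as recovered for 31.6% of all listed peaks.

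The fold at Il10ra was 5.15 and the q was 0.000372 in the authors' deposited table, rank 3437 of 6395. Its fold lay above 61.5% of all listed peaks and its pileup above 8.99% of them, whereas the Il10rb peak lay above 96.8% by fold and 64.3% by pileup. Among the 100 listed peaks that also held 19 anti-IFNAR1 fragments, folds ran from 4.19 to 5.63 with a median of 5.31. Of these, 52 were above that of Il10ra, whose fold was below the median for its coverage. Here too the order is one of recovered control backgrounds alone. The median listed peak had a fold of 4.74 and 41 anti-IFNAR1 fragments. The depth-scaled ratio at Il10ra was 22.8 (exact 95% interval 3.62 to 945.6) against the 1 kb window. Against the limit at the site it was 1.79, with the 19 anti-IFNAR1 fragments taken as exact. The interval of Il10ra covers that of Il10rb, so these counts do not separate the ratios of the 2 chains.

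**Figure D1:**
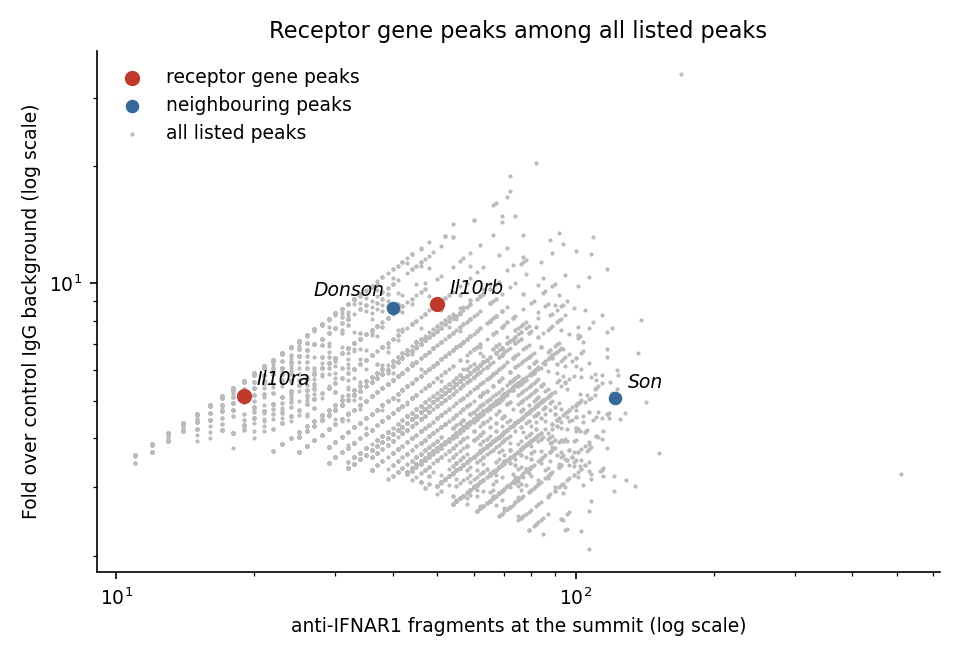
Fold over the control IgG background against anti-IFNAR1 fragments at the summit, both on log scales, for all 6395 listed peaks (grey), the receptor gene peaks (red) and the neighbouring peaks of Son and Donson (blue). Il10rb stands at 50 fragments and a fold of 8.86, near the upper edge for its coverage, and Il10ra at 19 fragments and a fold of 5.15.

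When the counting noise of both sides entered a one-sided exact binomial test at the site, the adjusted p was 5.18e-05 for Il10rb and 0.00998 for Il10ra (Benjamini-Hochberg over all 6395 listed peaks). In that test 98.7% of all listed peaks passed. The peaks were listed on the same counts, so passing sets neither peak apart from the list.

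On chromosome 16 the 4 receptor genes lie in the order Ifnar2, Il10rb, Ifnar1, Ifngr2 over 191 kb, from 91372783 to 91564007. Ifnar2 (91372783 to 91405589) and Il10rb (91406157 to 91425834) are separated by 568 bp. Il10rb and Ifnar1 (91485032 to 91510523) are 59.2 kb apart, and Ifnar1 and Ifngr2 (91547059 to 91564007) 36.5 kb apart. With 50 kb added on either side, the window held 12 RefSeq genes, 5 of them protein-coding: the receptor genes and Tmem50b, a membrane protein gene. The Il10rb peak was the single listed peak in it.

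The Il10rb peak stood between long stretches without a listed peak. Towards Ifnar2 and beyond, the next listed peak was 395 kb away, at the TSS of the lipid phosphatase gene Synj1. That stretch holds 5 protein-coding genes, namely Paxbp1, 4932438H23Rik, the glial transcription factor genes Olig2 and Olig1, and Ifnar2. In the other direction the next listed peak lay 239 kb away, at the TSS of Son, which encodes an RNA-binding splicing protein. That stretch holds Ifnar1, Ifngr2, Tmem50b and Dnajc28.

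Inside the span of the receptor genes, the stretch from the Il10rb peak to the end of Ifngr2 was 157 kb without a listed peak, and the one from the start of Ifnar2 to the peak was 33.5 kb. Stretches of this length are common in the list. The median stretch between neighbouring listed peaks was 102 kb, the 239 kb stretch exceeded 69.9% of all 6374 and the 395 kb stretch 78.9%. Of 469 windows of the same length, 291225 bp, that touch 5 protein-coding genes each, 30.1% held no listed peak, 29.2% held 1 and 40.7% held more.

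**Figure D2:**
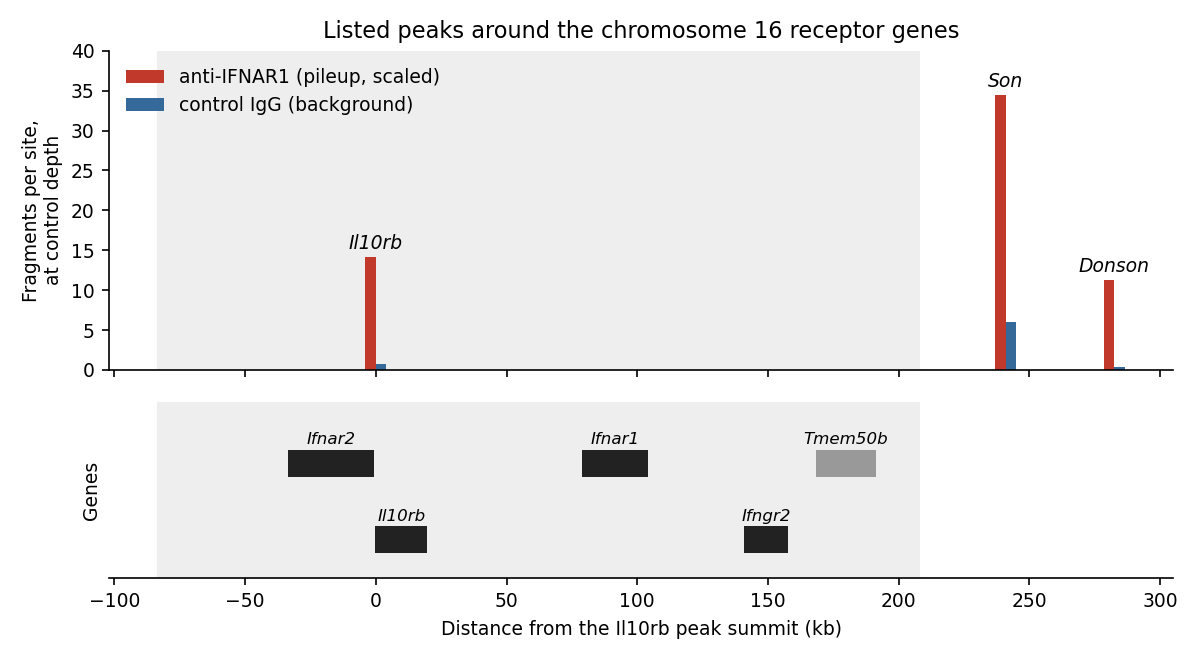
Upper panel, listed peaks around the chromosome 16 receptor genes by distance in kb from the Il10rb summit, with scaled anti-IFNAR1 pileup (red) and control IgG background (blue, drawn beside it) in fragments per site. Lower panel, the 5 protein-coding genes of the window, receptor genes in black and Tmem50b in grey. The grey band is the window with 50 kb on either side. Inside it stands the Il10rb peak alone, at 14.13 against 0.708, and the peaks of Son and Donson lie outside.

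The peaks of Son and Donson were the next past the Ifngr2 side of the cluster. Son had 122 anti-IFNAR1 fragments, a pileup of 34.49, against 6 control IgG fragments at the same site, and a fold of 5.07 in the authors' deposited table. Its depth-scaled ratio was 5.75 (exact 95% interval 2.57 to 15.97). Donson, a DNA replication gene, had 40 anti-IFNAR1 fragments against a background of 0.425 from 18 control fragments in 10 kb, with a fold of 8.64. Il10rb was thus closer to Donson than to Son in both coverage and fold. The exact intervals of Il10rb and Son overlap, but they are not like for like. That of Il10rb uses control fragments in 1 kb and that of Son control fragments at the site.

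Ifnar1, the gene of the antibody's target, was 78.2 kb from the nearest listed peak, that of Il10rb. Ifnar2 was 0.649 kb from the same peak, which the file assigned to Il10rb. Ifngr2, the partner chain for interferon gamma, was 82.2 kb from its nearest listed peak, that of Son. The median protein-coding gene was 48.8 kb from a listed peak, and 23.1% of them were overlapped by one.

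Ifngr1, which encodes the ligand-binding chain for interferon gamma, lies apart from the others on chromosome 10, from 19591949 to 19610229. Its nearest listed peak was 241 kb away, in a coding exon of the transporter gene Slc35d3, a distance larger than that of 75.8% of protein-coding genes. On the other side the next listed peak was 403 kb away. The whole stretch of 662 kb without a listed peak holds 4 protein-coding genes. Along with Ifngr1 these are Olig3 and 2 further receptor genes of the same family, Il22ra2, which encodes a soluble IL-22 binding protein, and Il20ra, a chain of receptors for IL-20 family cytokines.

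Il10ra was likewise alone in its surroundings. The nearest listed peaks were an intergenic one at 143 kb and, on the other side, the TSS peak of Cd3e, a T cell receptor complex gene, at 244 kb. The 402 kb between them hold 11 protein-coding genes, and Il10ra was the one with a listed peak. Of all protein-coding genes, 21.1% had one assigned. The median stretch between neighbouring listed peaks was 102 kb, and a stretch of 239 kb exceeded 69.9% of them.

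**Figure D3:**
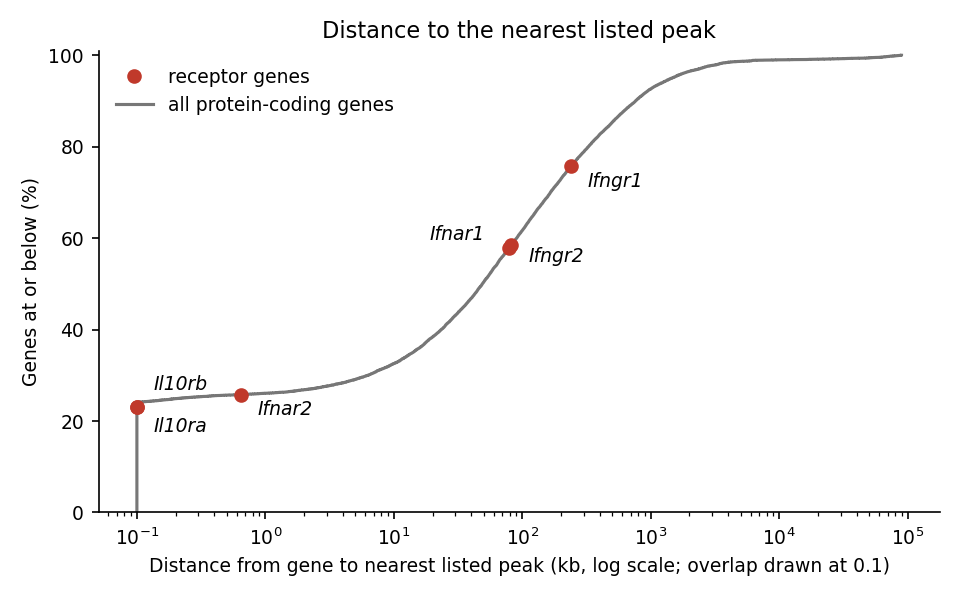
Distance in kb (log scale) from each gene to the nearest listed peak, as the cumulative percentage of protein-coding genes (grey line), with the 6 receptor genes marked in red. Il10ra and Il10rb are overlapped by a peak and drawn at 0.1 kb, Ifnar2 stands at 0.649 kb, Ifnar1 and Ifngr2 at 78.2 and 82.2 kb and Ifngr1 at 241 kb.

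The promoters of the interferon receptor genes are shown because they are the sites where no peak was listed. Each is 300 bases, from 250 before to 50 after a start, from RefSeq (GRCm38.p6, the assembly of mm10). The start is the first base of the gene for Ifnar2, Ifngr2 and Ifngr1, and for Ifnar1 the table's start at 91485215, which lies 183 bp inside the gene. The sequence table matched 4 of the 6 members, and Il10ra and Il10rb were not matched. Capitals mark the GC box GGGCGG, a binding site for Sp family factors, and the GAS pattern TTCNNNGAA, to which STAT dimers bind, on either strand.
Ifnar2, chr16:91372533-91372832, + strand: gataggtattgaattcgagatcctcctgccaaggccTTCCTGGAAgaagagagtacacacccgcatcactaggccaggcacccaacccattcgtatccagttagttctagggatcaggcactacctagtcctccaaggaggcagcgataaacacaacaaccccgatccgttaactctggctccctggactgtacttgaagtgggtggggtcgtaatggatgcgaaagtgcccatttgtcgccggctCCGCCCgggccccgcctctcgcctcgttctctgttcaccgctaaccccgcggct
Ifnar1, chr16:91484965-91485264, + strand: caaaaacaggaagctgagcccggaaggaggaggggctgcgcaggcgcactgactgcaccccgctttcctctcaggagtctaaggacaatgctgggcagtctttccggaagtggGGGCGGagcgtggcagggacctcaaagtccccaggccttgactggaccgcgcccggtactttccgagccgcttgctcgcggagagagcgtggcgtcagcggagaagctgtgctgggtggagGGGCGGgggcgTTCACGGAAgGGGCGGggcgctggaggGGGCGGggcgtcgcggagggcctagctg
Ifngr2, chr16:91546809-91547108, + strand: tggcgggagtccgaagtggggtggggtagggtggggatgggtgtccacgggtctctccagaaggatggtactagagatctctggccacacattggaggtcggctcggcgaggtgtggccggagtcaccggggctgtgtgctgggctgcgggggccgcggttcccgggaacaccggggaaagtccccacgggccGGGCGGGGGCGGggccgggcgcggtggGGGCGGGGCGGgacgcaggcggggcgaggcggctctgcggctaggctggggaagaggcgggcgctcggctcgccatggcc
Ifngr1, chr10:19591699-19591998, + strand: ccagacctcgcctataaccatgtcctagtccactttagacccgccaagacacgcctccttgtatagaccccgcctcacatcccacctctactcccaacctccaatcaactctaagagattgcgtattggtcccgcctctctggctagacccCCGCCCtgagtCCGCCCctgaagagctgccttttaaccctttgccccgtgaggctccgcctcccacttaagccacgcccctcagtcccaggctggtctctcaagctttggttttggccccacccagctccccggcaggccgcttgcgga

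None of these 4 promoters was overlapped by a listed peak, which follows from how they were picked. Among all 21263 protein-coding promoters, 17.6% were overlapped. Listed promoters were the more GC-rich, with a median GC content of 63.3% where a listed peak overlapped and 54.7% where none did. The Ifngr2 promoter had 74.3% GC, above 94.2% of all protein-coding promoters, and that of Ifnar1 68.3%. Ifngr1 stood at 60.3% and Ifnar2 at 57.0%. The promoters of Ifngr2 and Ifnar1 were therefore more GC-rich than the median listed promoter and those of Ifngr1 and Ifnar2 less so.

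**Figure D4:**
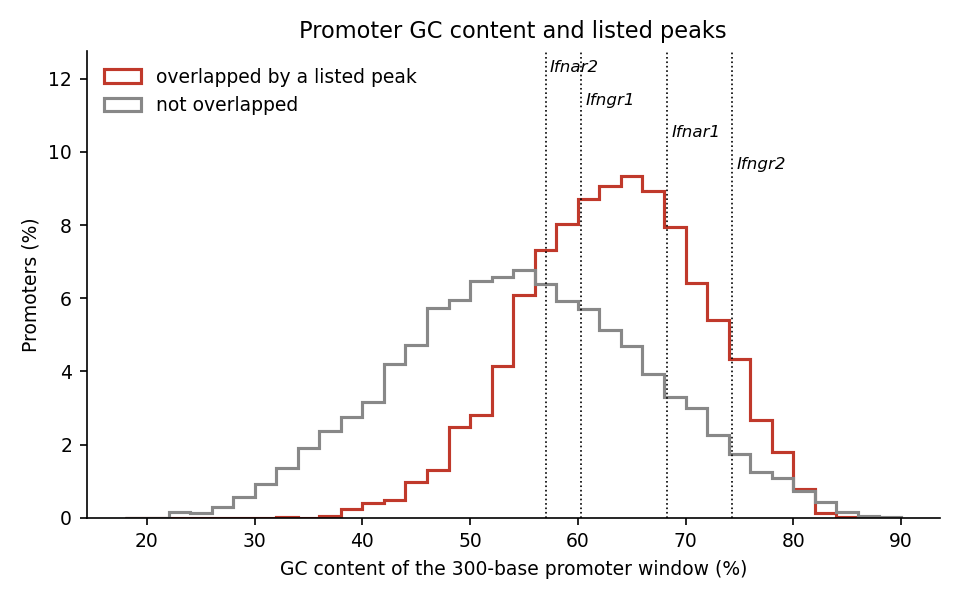
Distribution of GC content (%) over 300-base promoter windows of protein-coding genes, as the percentage of the 3732 promoters overlapped by a listed peak (red) and of the 17531 not overlapped (grey). Dotted lines mark the interferon receptor genes, none of them overlapped, from 57.0% at Ifnar2 to 74.3% at Ifngr2.

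The GC box was present in all 4 of these promoters, with 4 copies at Ifnar1, 4 at Ifngr2, 2 at Ifngr1 and 1 at Ifnar2. Among protein-coding promoters 46.2% held it, 73.5% of those overlapped by a listed peak and 40.4% of the others. The GAS pattern was found in both type I interferon receptor promoters, 214 bases before the start at Ifnar2 and, at Ifnar1, 5 bases before the start at 91485215, and in neither interferon gamma receptor promoter. It occurred in 7.69% of all promoters, 5.33% of those overlapped and 8.20% of the others. A match is a stretch of letters and not a bound site.

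Other patterns were searched on both strands of the same windows. The core GAAANNGAA of the interferon-stimulated response element was in none of the 4, against 8.15% of all promoters, and the AP-1 pattern TGANTCA in none, against 6.99%. The ETS pattern CCGGAA was in Ifnar1 alone, where 2 of its 3 matches overlap each other, against 18.7% of all promoters. The CCAAT box, CCAAT, was in Ifngr1 and Ifngr2, against 38.2%. No match in a window says only that these letters are not there.

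Genes that act before and after these receptors were counted from lists of ligands, other class II receptors, kinases and signal transducers, and regulators. Of 25 such genes, 7 had a listed peak (28.0%, against the 21.1% of all protein-coding genes). None of the 6 other receptor genes of the family had one: Il20ra, Il20rb, Il22ra1, Il22ra2, Ifnlr1 and F3, the last of which encodes tissue factor. Of 7 ligand genes, 1 was listed, Ifng, with a peak in intron 1. It held 18 anti-IFNAR1 fragments against a background of 0.283, and its fold was 4.74. Il10 itself, the ligand of the receptor whose chains were listed, had no peak, and neither had Ifnb1, Ifna4, Il22, Ifnl2 or Ifnl3.

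Of 6 kinases and signal transducers, 3 were listed (50%, against 21.1% of all protein-coding genes, in a short list). Stat3, the main transducer of the IL-10 receptor, had 3 peaks, and the one with the smallest q held 87 anti-IFNAR1 fragments against a background of 4.01, with a fold of 5.11 in the authors' deposited table. Jak1, the kinase common to all 3 receptors, had 64 anti-IFNAR1 fragments against 4 control IgG fragments and a fold of 3.82. Irf9, the DNA-binding part of the type I interferon transcription complex, had 22 anti-IFNAR1 fragments against a background of 0.472 and a fold of 4.90, and no listed peak was assigned to Tyk2, Jak2 or Stat2.

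Of 6 regulators of these receptors, 3 were listed (50%, against 21.1% of all protein-coding genes, again in a short list). Socs3, an inhibitor of STAT3 signalling, had 84 anti-IFNAR1 fragments against a background of 4.48 and a fold of 4.51. The phosphatase gene Ptpn2 had a TSS peak with 78 anti-IFNAR1 fragments against 5 control IgG fragments and a fold of 3.84. Its weaker intron peak held 12 anti-IFNAR1 fragments. That peak did not pass the exact test at the site (adjusted p 0.0506). Socs1, an inhibitor of JAK kinases, had 75 anti-IFNAR1 fragments against a background of 7.79 and a fold of 2.53, close to the lowest of the whole list at 2.08. Usp18, which restrains IFNAR2 signalling, Ptpn6 and Cish had none.

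Read along each pathway, listed peaks stood at different steps. For IL-10 they stood at both receptor chains, Jak1 and Stat3, and not at Il10 or Tyk2. For interferon gamma they stood at Ifng and Jak1, and at neither receptor chain nor Jak2. For type I interferon they stood at Jak1 and Irf9, and at neither receptor chain, Tyk2 or Stat2. These are counts over a few genes each, where 21.1% of all protein-coding genes had a listed peak. No difference between the pathways was tested. The fold of Il10rb, 8.86, was the highest among the peaks given here of these receptor, ligand and signalling genes. The next were 5.36 at a Stat3 peak and 5.15 at Il10ra. This order holds with the pseudocount of 1. Without it, depth-scaled ratios were 28.45 at that Stat3 peak, 22.76 at Il10ra, 19.96 at Il10rb, 17.97 at Ifng and 13.18 at Irf9. Those of Jak1 and the other Stat3 peaks were lower. The Stat3 and Ifng ratios use control fragments in 10 kb, and those of Il10ra, Il10rb and Irf9 in 1 kb. The exact intervals of these ratios overlap, so the counts do not set Il10rb above them.

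**Figure D5:**
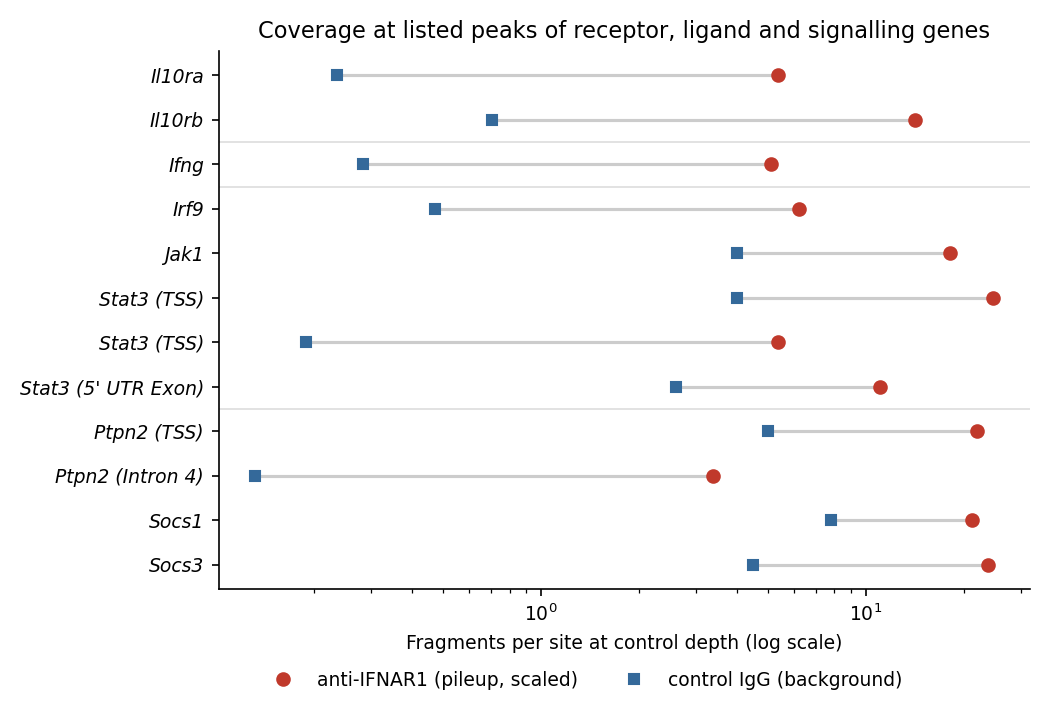
Fragments per site at control depth (log scale) for each listed peak of the receptor genes and of ligand, signalling and regulator genes, with the anti-IFNAR1 pileup as red circles and the control IgG background as blue squares. Il10rb (14.13 against 0.708) and Il10ra (5.37 against 0.236) have low backgrounds, below those of Jak1 (18.09 against 4) and Socs1 (21.2 against 7.79). Low backgrounds are not particular to them. Irf9 (0.472), Ifng (0.283), a Stat3 peak (0.189) and the Ptpn2 intron peak (0.132) lie below Il10rb, the last 2 also below Il10ra. The Ptpn2 intron peak did not pass the exact test at the site.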

How the data were processed

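The genome build was mm10, and the tools were bedtools, DESeq2, DiffBind 2.0.7, MACS2 2.1.0.20150420 and BWA 0.7.9a, with no role or order stated, per the submitters' processing notes. The shift of cut sites, the treatment of duplicates and the libraries on each side are not stated there. The authors deposited 1 peak list, whose peak names state IFN against Ig. The deposited signal is the pileup at the summit and the deposited ratio is the fold over the control background, both per the file headers. A pair of deposited columns with damaged headers was read as −log10 p and −log10 q. Poisson probabilities computed here matched the p column to within 0.000111 on the −log10 scale.

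Pileups were multiples of 0.283 (tolerance 0.005), which gave whole fragments. Background was recovered from the fold, and assigned to the site (236 bp), a 1 kb window, a 10 kb window or the genome rate (tolerance 0.001). Ratios carry exact Clopper-Pearson 95% intervals. Of 6395 simulated sites of this comparison, 200 were changed. There the exact test called 16.5% of 5-fold and 67% of 10-fold changes at an adjusted p of 0.05. Most simulated sites were unchanged and the lowest backgrounds were raised to a floor, unlike the listed sites. These shares therefore do not give the recovery of the test on the list. The design allowed for a fit over samples, but the file has no values for single samples. Peak coordinates are as the file gives them, gene and promoter positions are from RefSeq (GRCm38.p6). Members and gene lists were chosen with earlier results of these data known. All 6 members, every peak of the window and at most 3 listed genes per list are given with values. A gene of the signalling list is not reported here. Python 3.11.15, numpy 2.4.6, pandas 2.3.3 and scipy 1.17.1 were used.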

Additional observations from a re-analysis of the deposited data

How the results depend on the processing

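The count of 2 members with a listed peak became 1 with a pileup of at least 10, which leaves out Il10ra at 5.37, and 3 with a margin of 5 kb around each gene, which adds Ifnar2 through the Il10rb peak. It was 2 in the exact test at the site, at a q of 0.01 and for peaks within 1 kb of the gene start. The exact test used the counts that listed the peaks and kept 98.7% of them, so its outcome adds little. With 100 kb on either side the window held 2 peaks, Il10rb and Son, and its median fold was 6.97. The widest stretch inside the receptor span was 157 kb under each filter tried. It could not change, since the Il10rb peak is the only one there and passed each filter. Without a pseudocount, the ratio against the 1 kb window, an alternative chosen after seeing the data, was 20.0 at Il10rb and 22.8 at Il10ra. The limits at the site, which take the anti-IFNAR1 fragments as exact, were 4.71 and 1.79. The span of the receptor genes alone, also chosen after seeing the data, held 1 peak. No paired analysis was possible because the file holds no values for single samples, and for the same reason no replicate could be left out. The depth of the control side, with 0 fragments at both summits as at 31.6% of the list, limits how precisely either ratio is known.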
